A study of Mus musculus with 4 samples.

Results

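Chl1 encodes close homolog of L1, a cell adhesion molecule of the immunoglobulin superfamily that is best known from neurons, where it acts in neurite growth and axon guidance. A stretch of 215 bp inside the mouse Chl1 gene held 24 of the 1404 tandem duplications recorded in this study, 12 of the 792 in the table of the wild type (WT) and 12 of the 612 in the table of the FEN1 mutant. These 24 records were selected on the position of the deposited calls, between 103649058 and 103649272 on chromosome 6 (GRCm38), so the number of calls there is a description and not a finding. Every record of either table inside the Chl1 span fell in this window, and the nearest record outside it, from the mutant table, lay 6016244 bp away at 109665516.

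The study sequenced exomes of mouse lung DNA from 4 groups with 1 library each. Both a lung tumor and a normal lung were sequenced for the WT and for mice heterozygous for the A159V change in FEN1, which are called A159V here. The labels name a FEN1 knock-in as the treatment of all 4 samples, the WT included. Strain, age, the origin of the tumors and whether tumor and normal lung came from the same animal are absent from the labels used here. The design text sets out to measure how often duplications arise in coding regions when the maturation of Okazaki fragments is faulty. FEN1 is the nuclease that removes the displaced ends of Okazaki fragments, the short pieces in which the lagging strand is copied. Flaps that are not removed can be joined into the new strand, which is a known route to short duplications.

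A record names a segment of the reference, gives the number of bases found between its copies, and counts reads with the reference and the duplicated allele in the tumor and the normal library of 1 genotype. Starts give the base just ahead of the segment, so the segment begins 1 base later. Depth is the sum of the reads of both alleles, and the duplication read share is the duplicated reads as a percentage of depth. Brackets give exact Clopper-Pearson 95% intervals. Where no duplicated read was seen, the limit given is 3 reads of the depth, which is below the upper end of the exact interval at the segments where it is printed. Both cover counting error only, and with 1 library in a group no difference between groups has a replicate check.

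The window lay 138474 bases into the Chl1 span (chromosome 6, 103510584 to 103733038), and no other annotated gene overlapped it. Exons and introns were not told apart. The reference letters of the window could be joined from the 24 reference alleles, which held the same letters wherever they overlapped and left 6 of the 215 positions without a letter (n). They are shown because the window is itself a repeat. The capitals mark the CENP-B box, which was searched on both strands as TTCG, 4 bases of any kind, A, 2 bases of any kind and CGGG, and which reads here on the reverse strand (103649165 to 103649179).
Chl1 window, chr6:103649058-103649272, plus strand: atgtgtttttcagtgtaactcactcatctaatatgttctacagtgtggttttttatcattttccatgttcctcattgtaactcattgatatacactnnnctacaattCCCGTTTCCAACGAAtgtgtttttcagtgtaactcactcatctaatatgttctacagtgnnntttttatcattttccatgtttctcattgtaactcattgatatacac

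The CENP-B box is the motif bound by the centromere protein CENP-B, and in the mouse it is known from the minor satellite, the tandem repeat of the centromeres. In the Chl1 window the last 94 bases matched the first 95 with 2 edits (unknown letters counted as matches), at an offset of 121 bp. The reference window therefore held 1 whole repeat unit of 121 bp and most of the next. The box was in the altered allele of 9 of the 24 Chl1 records (37.5%) and of 8 of the 1380 other records (0.58%). All 8 of these lay on chromosome 2. Whether the reads at Chl1 came from this gene or from copies of the repeat elsewhere was not tested.

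Most Chl1 segments fell into a stack and a smaller set. In the map of the duplicated segments, a stack of 7 segments in each table began at 103649104 to 103649109 and ended at 103649149 to 103649153. A second set of 3 segments in the WT and 2 in A159V began at 103649157 or 103649158 and contained the box. Apart from all of these, the last segment, 103649227 to 103649272, was found in both tables, and 1 A159V segment stood alone at the first start of the window (103649058 to 103649102). An early WT segment (103649078 to 103649125) overlapped the 7 WT segments of the stack, and an A159V segment at 103649179 to 103649223 overlapped the 2 over the box. Segments overlapped in 31 of the 66 pairs of WT records and in 24 of the 66 pairs of A159V records. Because overlapping records share reference reads, they are not separate sites. The 24 records named 17 different segments by position, and 7 segments had the same start and reference allele in both tables.

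**Figure D1:**
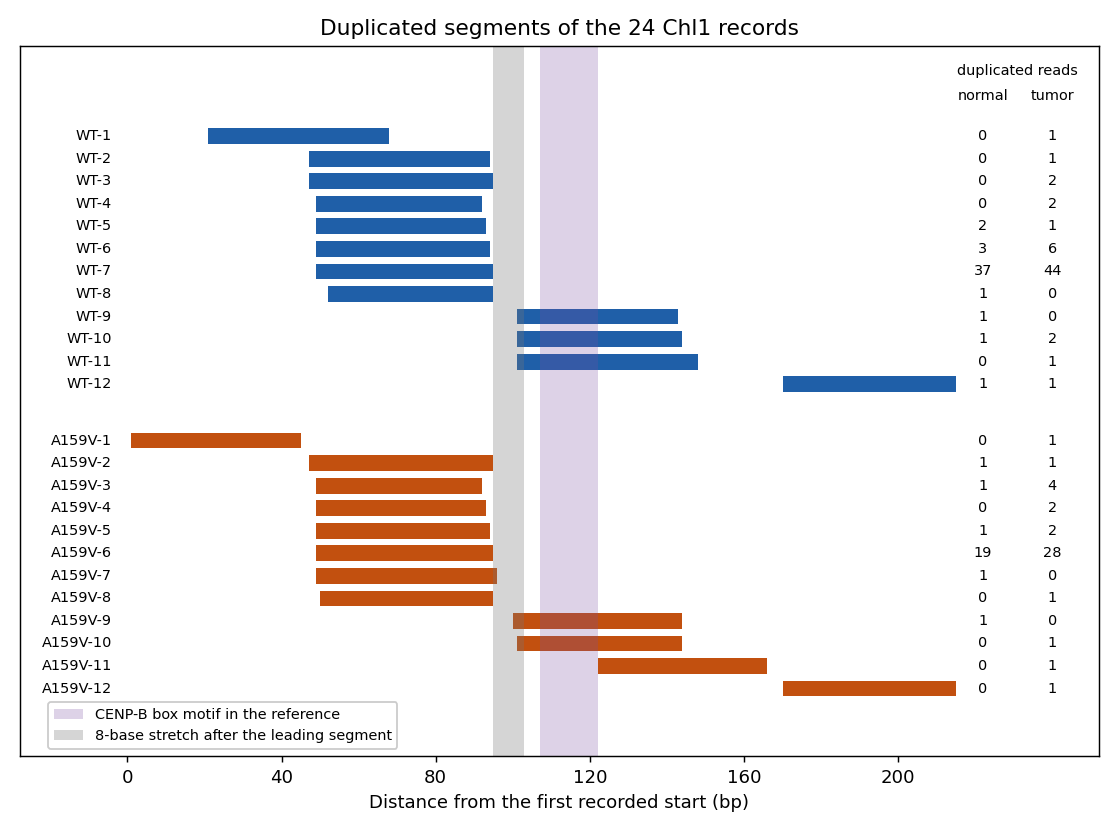
Duplicated segments of the 12 WT records (blue) and 12 A159V records (orange) by distance in bp from the first recorded start, with the duplicated reads in normal lung and tumor written at the right. Most reads belonged to 1 segment, with 37 and 44 reads in the WT and 19 and 28 in A159V, whose end lies at the edge of an 8-base stretch before the box (grey).

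The leading segment was the same in both genotypes, 103649106 to 103649152, with 46 duplicated bases, 64 intervening bases and thus 110 inserted bases. It had 81 duplicated reads in the WT table and 47 in the A159V table, the highest numbers of any record in either, where the next were 18 and 19 reads, both in Irak4. In WT normal lung 37 of 415 reads carried it, a share of 8.92% (6.36 to 12.1). In WT tumor 44 of 625 reads carried it, or 7.04% (5.16 to 9.34). In A159V normal lung the duplication was in 19 of 302 reads, or 6.29% (3.83 to 9.65), and in A159V tumor in 28 of 397 reads, or 7.05% (4.74 to 10.03). All 4 intervals overlapped.

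The inserted sequences of this leading record are shown because they carry most of the reads. Capitals mark the second copy of the segment, and the lower case before it gives the intervening bases.
WT inserted sequence: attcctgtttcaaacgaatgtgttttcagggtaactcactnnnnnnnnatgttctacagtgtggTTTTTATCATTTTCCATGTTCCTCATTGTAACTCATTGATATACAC
A159V inserted sequence: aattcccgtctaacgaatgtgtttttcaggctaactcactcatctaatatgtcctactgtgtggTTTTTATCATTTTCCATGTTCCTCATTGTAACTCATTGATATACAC
The intervening bases of the WT and A159V differed by 9 edits, with the block of 8 n in the WT taken to match anything. A record gives 1 inserted sequence whatever its number of reads, so the spread among the 81 or 47 reads is not visible.

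The share of the leading segment did not differ between the libraries beyond counting error. The tumor share was 0.79 times the normal share in the WT (95% interval 0.519 to 1.20) and 1.12 times in A159V (0.638 to 1.97). The A159V share was 0.706 times the WT share in normal lung (0.414 to 1.20) and 1.00 times in tumor (0.635 to 1.58). Fisher's exact test on the reads, two-sided, gave p = 0.289 for WT tumor against normal, 0.761 for A159V tumor against normal, 0.208 between the normal lungs and 1 between the tumors. The ratio of the A159V to the WT tumor-to-normal odds ratio was 1.46 (0.686 to 3.11), so these reads leave a wide range for a difference between the genotypes. Such tests compare libraries and not conditions.

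The same test was run on all records. Between tumor and normal lung 0 of the 24 Chl1 records passed a threshold of 0.05 in Fisher's exact test, Benjamini-Hochberg adjusted across the 1404 records, where 0% of all records did. Without adjustment 0 of the 24 were under 0.05, against 0.142% of all records. The smallest exact p in the cluster was that of the leading WT segment. Most tests over all records had little room to reach 0.05, because they rested on a single duplicated read over both libraries. That held for 88.3% of WT and 89.7% of A159V records, and in the cluster for 5 of 12 and 7 of 12. These tumor and normal counts therefore do not show that the tissues are alike. Between the genotypes, 94 segments found in both tables gave 188 exact tests over both tissues, with 0% under 0.05 before or after adjustment. The 14 tests at Chl1 had exact p-values of 0.208 or more. Apart from the leading segment, they rested on 0 to 6 duplicated reads per library, with little room to reach 0.05. The 0% therefore does not show that the genotypes are alike.

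Within the stack, 4 WT and 5 A159V segments shared the start 103649106 and differed only in their end. In the WT the ends 103649149, 103649150 and 103649151 had 0, 2 and 3 duplicated reads in normal lung and 2, 1 and 6 in tumor. In A159V the same ends had 1, 0 and 1 reads in normal lung and 4, 2 and 2 in tumor, and the end 103649153 had 1 normal read. The segment 1 base longer than the leading one thus had 1 read where the leading one had 47. The reads were also summed over this start, with the largest reference count among its records plus all their duplicated reads as depth. In A159V that count came from the end 103649153 (289 in normal lung, 377 in tumor), which the WT lacked, so the depths are not quite alike. The summed share in WT was 10% for normal lung (7.30 to 13.3) and 8.36% for the tumor (6.32 to 10.8). For A159V it was 7.07% (4.49 to 10.5) and 8.72% (6.18 to 11.9). The 4 intervals again overlapped.

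The remaining segments of the stack had few reads. The segment 103649104 to 103649152 had 0 of 378 reads in WT normal lung (limit 0.794%) and 2 of 583 in WT tumor (0.343%). In A159V it had 1 of 284 normal reads (0.352%) and 1 of 370 tumor reads (0.27%). The WT segment from 103649104 to 103649151 had 1 tumor read, the WT segment from 103649109 had 1 normal read, and the A159V segment from 103649107 had 1 tumor read. At these segments no order of the libraries could be read from the counts.

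The segments that contained the box were covered by more reads than the stack and carried fewer duplications. The segment 103649158 to 103649201 had 1 of 1311 reads in WT normal lung (0.0763%), 2 of 1908 in WT tumor (0.105%), 0 of 1026 in A159V normal lung, which allows up to 0.292%, and 1 of 1324 in A159V tumor (0.0755%). The WT segments with the same start that ended at 103649200 and 103649205 had 1 normal read and 1 tumor read. The A159V segment from 103649157 had 1 normal read of 1027. The last segment, 103649227 to 103649272, had 1 of 1222 reads in WT normal lung, 1 of 1772 in WT tumor, 0 of 965 in A159V normal lung (limit 0.311%) and 1 of 1227 in A159V tumor. In each library the interval of the leading share lay above the intervals of these 2 shared segments, as the plot of shares by segment shows. The records were chosen with these reads known, so this is a description.

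**Figure D2:**
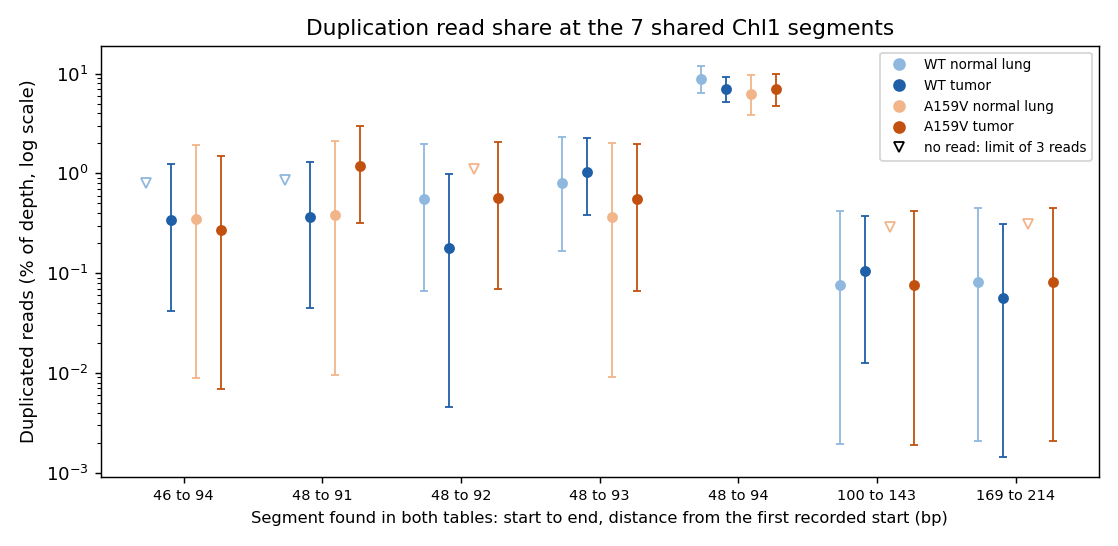
Duplication read share (% of depth, log scale) in the 4 libraries at the 7 segments found in both tables, with exact 95% intervals for counting error, and open triangles at the limit of 3 reads where no read was seen. The leading segment (48 to 94 bp) lies between 6.29% and 8.92% in all 4 libraries, and every other segment lies at 1.18% or below.

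The other 3 records rested on 1 read each. The early WT segment (103649078 to 103649125) had 0 of 30 normal reads and 1 of 67 tumor reads (1.49%, 0.0378 to 8.04). The A159V segment at the first start of the window had 1 of 4 tumor reads and 0 of 2 normal reads, too few to give a share. The A159V segment from 103649179 to 103649223 had 1 of 1297 tumor reads and 0 of 1003 normal reads. These 2 A159V segments had the same reference letters 121 bp apart, and their inserted sequences were identical in every letter.
A159V inserted sequence at both places: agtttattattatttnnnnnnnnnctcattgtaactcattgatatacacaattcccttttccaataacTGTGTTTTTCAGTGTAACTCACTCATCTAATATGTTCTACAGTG
Each had 1 tumor read. The tables do not show whether this was the same read placed at both copies of the repeat. Over the whole tables, 3 WT and 2 A159V altered alleles were recorded at more than 1 place with the same letters.

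Counted by library, 7 of the 12 WT records had a duplicated read in normal lung and 10 in tumor, and of the 12 A159V records 6 had one in normal lung and 10 in tumor. Reads in both libraries of a genotype were found at 5 WT records, where 6.19% of all WT records had them, and at 4 A159V records, where 6.05% of all A159V records did. Records with 1 read over both libraries numbered 5 of 12 in the WT and 7 of 12 in A159V, against 88.3% and 89.7% of all records. The cluster held 46 of the 412 duplicated reads of WT normal lung (11.2%, 8.29 to 14.6) and 61 of the 670 of WT tumor (9.10%, 7.04 to 11.5). It held 24 of the 383 of A159V normal lung (6.27%, 4.06 to 9.18) and 42 of the 422 of A159V tumor (9.95%, 7.27 to 13.2). The leading segment alone gave between 66.7% and 80.4% of the cluster's duplicated reads in each library. The genotype field called all 24 records reference in both libraries.

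Depth was high compared with most other records and was not even across the window. The median depth over the Chl1 records was 582 reads in WT tumor and 378.5 in WT normal lung, 373.5 in A159V tumor and 287 in A159V normal lung, against medians of 1 to 2 reads over all other records. It was not the highest where the sequence was alike: in the WT, a record at 98665100 on chromosome 2 had a depth of 1795 reads in normal lung and 2934 in tumor, above the largest of the Chl1 records, 1311 and 1908. Reference reads rose with the position of the segment's end as far as the box and were slightly lower at the last segment. In WT tumor they went from 66 at the early segment to between 546 and 581 in the stack and between 1897 and 1906 over the box. In A159V tumor they went from 3 at the first segment to between 336 and 377 in the stack and 1323 over the box. Both normal lungs showed the same course at lower depth. In the cluster, records of a table with the same end always had the same reference count, at all 4 ends that several records shared. Among the other records this held at 24 of 32 such ends. From the box onwards the 4 WT records had 4 duplicated tumor reads at depths of 1772 to 1908, and the 7 in the stack had 56 duplicated tumor reads at depths of 548 to 625.

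**Figure D3:**
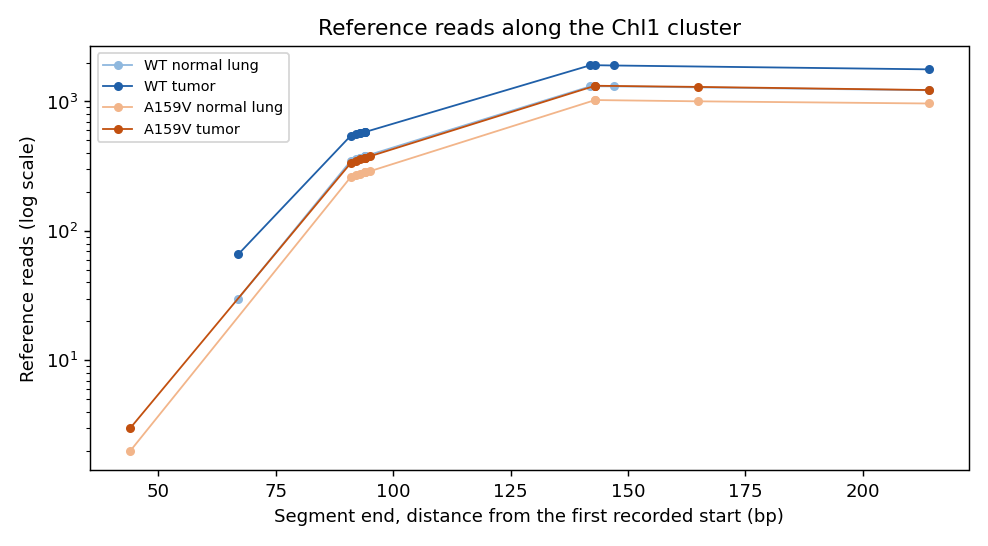
Reference reads (log scale) of each Chl1 record against the distance of its segment end from the first recorded start, in bp, 1 line per library. All 4 libraries rise from the first ends to the segments over the CENP-B box, with WT tumor highest and A159V normal lung lowest, and the lines of A159V tumor and WT normal lung lie on each other.

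Between libraries the depth differed by a nearly constant factor at all but the 2 earliest segments. WT tumor had 1.53 times the depth of WT normal lung (median of 12 records, range 1.45 to 2.23), and A159V tumor had 1.30 times that of A159V normal lung (range 1.27 to 2.0). At the 7 shared segments A159V had 0.751 times the WT depth in normal lung (0.728 to 0.79) and 0.635 times in tumor (0.62 to 0.694). More records with reads in the tumors than in the normal lungs thus came with higher depth in the tumors, and the part of depth in those counts was not tested.

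Every Chl1 record had bases between the copies. The intervening bases numbered 64 to 69, with a median of 66, and the segments were 42 to 48 bp long, with a median of 45. The inserted sequence as a whole was 108 to 112 bp long in all 24 Chl1 records, with a median of 111 bp. In the 1380 other records it was 17 to 118 bp long with a median of 94 bp, and 74 of them (5.36%) lay in the range of the Chl1 records. The 11 other records with sequence like that of the Chl1 window, described below, inserted 108 to 118 bp. Several of these lay in the Chl1 range, so the length is not particular to the cluster. None of the 24 was an exact copy without intervening bases, against 158 of the other records (11.4%). No stretch of 10 or more bases of the Chl1 segment was found between its copies in any of the 24, on either strand, whereas 592 of the other records (42.9%) held one. A block of 8 or 9 n stood in the intervening bases of 12 of the 24, close to the 42.8% of the other records.

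**Figure D4:**
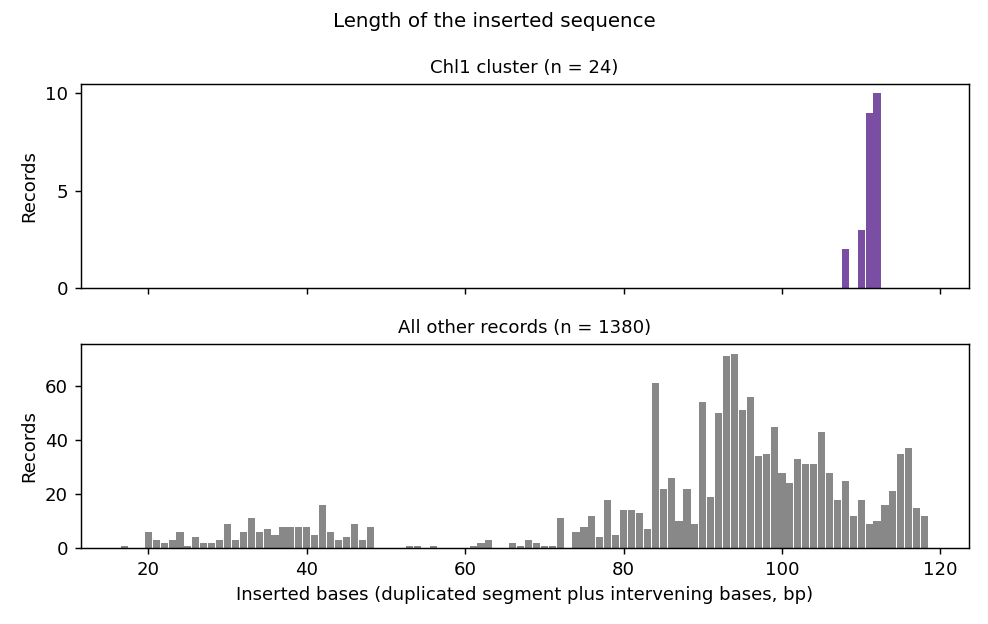
Number of records by length of the inserted sequence in bp (duplicated segment plus intervening bases) for the 24 Chl1 records and the 1380 others, with separate vertical scales. The Chl1 records stand between 108 and 112 bp, whereas the others spread from 17 to 118 bp.

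The inserted sequences were similar to the repeat of the window but shorter than its 121 bp unit. Each was compared, letter by letter, with the reference unit turned so that it began after the segment, once whole and once without the 8 bases from 103649153 to 103649160, which follow the leading segment and leave a unit of 113 bp. These 8 bases were picked after the letters were seen. They include positions without a letter (n), which counted as matches to any base in the whole unit. Of the 24 inserted sequences, 23 were closer to the shorter unit, with a median of 6 edits (3 to 22) against 13.5 (11 to 16) for the whole unit. The exception was the early WT segment, with 22 edits against 15. Length alone sets much of this order, because an insert of 108 to 112 bp is at least 9 edits from a unit of 121 bp (9 to 13) and 1 to 5 from one of 113 bp. No insert among the other records was longer than 118 bp, so none in either table reached a whole unit of 121 bp. Being shorter than the unit therefore does not set the Chl1 records apart. Which unit was closer thus says little about the letters. The junction that arises when the 8 bases are missing, with the capitals marking the bases after the gap, was present letter for letter in the altered alleles of 8 of the 24 records and nowhere in the reference window.
Junction: atatacacAATTCCCG
The records of the stack reached this junction from its left side, since their segment ended at or near it. The segments that began at 103649158 reached it from the right, and all 4 records with that start held it exactly. The 8 bases were picked as the gap whose junction stood in the most of these same altered alleles. The count of 8 of the 24 records is therefore the basis of that choice and not a separate finding. The match at the junction is a description of letters, and no test was run on it.

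At the 7 segments shared by the genotypes the intervening bases were never identical. They differed by 1 edit at the last segment (103649227 to 103649272) and by 5 to 9 edits at the others. The pair with 1 edit, the most alike, is shown with the second copy in capitals. It held no n, and neither did the pairs from 103649106 to 103649149 and to 103649151, which differed by 7 and 9 edits.
WT last segment, inserted: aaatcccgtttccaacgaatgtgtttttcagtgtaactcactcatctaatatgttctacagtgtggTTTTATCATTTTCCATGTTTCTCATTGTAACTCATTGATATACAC
A159V last segment, inserted: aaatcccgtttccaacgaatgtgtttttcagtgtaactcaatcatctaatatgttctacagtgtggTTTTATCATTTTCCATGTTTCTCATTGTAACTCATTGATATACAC
Both inserted sequences held the CENP-B box. The inserted sequences of the leading segment did not hold it in either genotype.

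Sequence like that of the Chl1 window was recorded in a few other places. Of the 1380 other records, 11 held in their altered allele 20 or more 12-base words of the Chl1 reference alleles, on either strand (27 to 82 words), and none of the rest held more than 3. The limit of 20 was set after these numbers were seen. There were 8 in the WT table and 3 in the A159V table. Of these, 10 lay between 98662783 and 98666429 on chromosome 2 and 1 at 24542085 on chromosome 9, none of them in a protein-coding gene span, and they inserted 108 to 118 bp. Each had at most 2 duplicated reads in a library, and the deep WT record at 98665100 had 1 of 1795 normal reads and 0 of 2934 tumor reads. The last Chl1 segment stood letter for letter in the reference allele of a WT record at 98666322 to 98666368 on chromosome 2, which is shown for comparison with the end of the Chl1 window.
Chromosome 2 segment, WT record, chr2:98666323-98666368: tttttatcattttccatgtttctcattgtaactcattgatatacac
The segments of 6 of the 24 Chl1 records were found whole in altered alleles recorded on chromosome 2. The leading segment was not among them.

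Loci with a similar pattern of shares were sought among segments found in both tables, in other protein-coding gene spans and outside windows crowded with records, with at least 20 reads in all 4 libraries. There were 5 such segments. Likeness was the largest difference in share from the leading Chl1 segment over the 4 libraries. The nearest, in the zinc finger gene Zfp984, was 6.37 percentage points away, with shares of 2.54%, 0.885%, 0% and 2.35% in WT normal lung, WT tumor, A159V normal lung and A159V tumor. Cmya5, a gene of a large muscle protein, and Zscan18, another zinc finger gene, were each 7.05 points away. Cmya5 had shares of 3.77%, 1.82%, 8.70% and 0% in the same order. In A159V normal lung it was thus above the 6.29% of the leading Chl1 segment. Irak4, next to Chl1 by duplicated reads in both tables, was not among the 5. None of the 5 thus came near the Chl1 shares in all 4 libraries.

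Other genes of neural cell adhesion and of the known partners of Chl1, such as the L1 family, contactins, semaphorin receptors, integrins and ankyrins, held 5 records. Of 30 listed genes 4 had a record (13.3%), against 2.71% of 21900 protein-coding genes. The listed genes are long, with a median span of 161 kb against 17.1 kb, and the part of length was not tested. Cntn5, a contactin, had 2 WT records, Ank1 had 1 WT record, and Ank2 and the integrin gene Itga1 had 1 A159V record each. Each rested on 1 read, at 0 to 2 reference reads per library.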

How the data were processed

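Exome libraries of 4 mouse lung DNA samples, 1 per group, were analysed. Per the file headers, the 2 deposited tables hold tandem duplications called with Pindel on GRCm38. BWA is named in the submitters' processing notes. Its version and any earlier filters are not stated in the labels or headers. The values are the authors' deposited counts of reference and duplicated reads per allele, used as deposited. Columns were matched through sample descriptions. The cluster and the lists were chosen with earlier results of these data known. The named-gene rule took Chl1, its leading record by duplicated reads, and the 3 nearest segments by share. Windows of 100 kb with at least 8 records counted as crowded. Gene spans came from RefSeq (GRCm38.p6). Shares carry exact Clopper-Pearson intervals at 95%, and ratios of shares log-scale intervals. Fisher's exact test used Benjamini-Hochberg adjustment over all 1404 records (threshold 0.05) and was tested on simulated data. Edits were counted with edlib, and statistics used SciPy 1.17.1 under Python 3.11.15. Reads are not molecules, so intervals cover counting error only. Alternatives varied the read minimum, depth, merging, overlap and word length. A planned comparison with major satellite was not run.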

Additional observations from a re-analysis of the deposited data

How the results depend on the processing

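Of 48 alternative values, 36 were classed as unchanged and 12 as moved. With 1 exception, the unchanged ones kept their value or direction, stayed on their side of the threshold or moved by less than their interval. The exception was the count of overlapping pairs of WT records, which fell from 31 to 24 under a stricter overlap rule. At 2 or more reads for a call, the Chl1 records seen numbered 3 and 5 in WT normal lung and tumor (from 7 and 10), and 1 and 4 in the A159V pair (from 6 and 10). The cluster's duplicated reads summed over all records came to 12.2%, 10.5%, 8.36% and 11.2% of its median depth in the same order. They came to 3.51%, 3.20%, 2.34% and 3.17% of its largest depth, and to 2.38%, 2.92%, 1.74% and 3.75% of the median without the leading record. By largest depth A159V normal lung was again lowest, and without the leading record A159V tumor was highest. Depth, which differed between libraries, limits what the records with 1 read can show. The sum over segments with the same start was chosen after seeing the data. The comparison with major satellite was not run, since no consensus of it was used here. No paired analysis was possible because each group had 1 library.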

Other observations

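The duplicated segments of the Chl1 cluster were poor in G and C, with a median of 28.6% (25.6 to 39.5) against 42.9% over the other records. The inserted length was a multiple of 3 bp in 11 of the 24 (45.8%) and in 41.6% of the others. Of 32851 promoter windows of RefSeq (GRCm38.p6), 22 (0.067%) held the CENP-B box on either strand, and that of Chl1 was not among them.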
